A study of Mus musculus with 12 samples.

Results

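In mouse embryonic fibroblasts (MEFs), 10 genes of the contractile apparatus and the muscle cell membrane were examined: Myl1, Myl4, Mylpf, Actc1, Acta1, Des, Tnnc1, Tnnc2, Tnnt1 and Chrna1. They are 10 of the 16593 genes that the arrays name, measured by 14 of 25697 probes. They were picked on these same arrays because most were bright only in cells without Sirt6, so the differences between genotypes given for them are a description and carry no test. MEFs are cultures grown from the body tissue of midgestation embryos, here at 13.5 days, and are labelled only as fibroblasts. The wild-type (WT) cells carry both genes. The Sirt6-/- cells lack Sirt6, a nuclear deacetylase of histone H3 linked to gene silencing, and the Sirt6-/-RelA-/- cells also lack RelA, a subunit of the transcription factor NF-κB. Each genotype was treated with the cytokine TNF-α at 20 ng/mL for 0, 1.5, 6 or 24 h, and total RNA from each of the 12 conditions was hybridized to 1 Illumina bead array. There is no replicate of any condition. The 4 times of a genotype stand in for replicates, an SD below is over these times, and a p-value measures how steady a difference was over them. The labels do not give how many embryos a genotype's cells came from, so genotype and culture cannot be told apart.

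In striated muscle, force comes from the sarcomere, in which thick filaments of myosin pull on thin filaments of actin. The myosin light chains encoded by Myl1, Myl4 and Mylpf bind the neck of the myosin head. Acta1 and Actc1 encode the actins of adult skeletal and of cardiac muscle. The troponin subunits encoded by Tnnc1, Tnnc2 and Tnnt1 sit on the thin filament and switch it on when calcium is bound. Desmin (Des) is the intermediate filament that ties neighbouring sarcomeres together, and Chrna1 encodes the alpha subunit of the acetylcholine receptor through which nerve excites the fibre. In the embryo these genes come on as myoblasts stop dividing, fuse and differentiate, under the MyoD family of transcription factors, which bind E-boxes. Myl4 and Actc1 are made in embryonic skeletal muscle and later mainly in the heart.

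The labels were checked first. The brightest Sirt6 probe gave intensities of 37.6 to 44.2 on the 4 WT arrays, -8.50 to 5.88 on the Sirt6-/- arrays and -2.85 to 11.96 on the Sirt6-/-RelA-/- arrays. Rela gave 674 to 1303, 1025 to 1446 and 172 to 187 in the same order. The Sirt6-/-RelA-/- cultures also differed from the other 8 arrays in sex-linked transcripts, with a mean Eif2s3y intensity of 835 against -3.06 and -4.66. The WT 0 h array stood slightly apart from the other WT arrays, with a mean correlation of 0.967 to them, where every other array had 0.982 to 0.991 to those of its genotype. Upper quartiles of all 12 arrays lay between 147 and 152. Intensities are background subtracted and can be negative, values under 16 were set to 16 before log2 was taken, and genes that reached 100 on any array were tested. All 10 members passed that filter, but 6 of them (Myl1, Mylpf, Actc1, Tnnc1, Tnnc2 and Tnnt1) did so only through the Sirt6-/- arrays.

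The promoters of 5 of the 10 genes are shown for what differed between them on the arrays: Actc1, Myl1 and Mylpf, bright only in Sirt6-/- cells, and Acta1 and Chrna1, bright in both knockout genotypes. Each runs from 250 bases before to 50 bases after the start of transcription and is read on the gene's strand from RefSeq's GRCm38.p6 sequence. Capitals mark an E-box, spelled CANNTG, or a CArG box, the site of serum response factor. They lie at chr2:114052826-114053125 (Actc1, minus strand), chr1:66945007-66945306 (Myl1, minus), chr7:127211358-127211657 (Mylpf, plus), chr8:123894726-123895025 (Acta1, minus) and chr2:73580289-73580588 (Chrna1, minus).
Actc1: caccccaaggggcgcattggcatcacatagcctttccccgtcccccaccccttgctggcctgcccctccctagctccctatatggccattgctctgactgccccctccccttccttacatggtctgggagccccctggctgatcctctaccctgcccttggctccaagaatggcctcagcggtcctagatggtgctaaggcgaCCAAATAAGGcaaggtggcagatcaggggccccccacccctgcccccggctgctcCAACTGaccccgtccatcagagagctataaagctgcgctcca
Myl1: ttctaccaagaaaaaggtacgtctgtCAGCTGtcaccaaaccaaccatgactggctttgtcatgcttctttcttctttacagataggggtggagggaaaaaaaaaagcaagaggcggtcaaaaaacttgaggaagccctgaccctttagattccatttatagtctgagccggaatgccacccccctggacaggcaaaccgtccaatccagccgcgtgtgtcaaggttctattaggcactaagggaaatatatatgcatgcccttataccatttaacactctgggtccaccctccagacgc
Mylpf: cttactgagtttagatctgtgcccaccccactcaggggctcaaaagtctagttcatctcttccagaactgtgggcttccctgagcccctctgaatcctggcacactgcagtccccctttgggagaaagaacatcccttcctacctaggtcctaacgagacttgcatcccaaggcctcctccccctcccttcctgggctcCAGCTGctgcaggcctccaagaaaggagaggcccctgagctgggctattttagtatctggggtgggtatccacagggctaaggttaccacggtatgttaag
Acta1: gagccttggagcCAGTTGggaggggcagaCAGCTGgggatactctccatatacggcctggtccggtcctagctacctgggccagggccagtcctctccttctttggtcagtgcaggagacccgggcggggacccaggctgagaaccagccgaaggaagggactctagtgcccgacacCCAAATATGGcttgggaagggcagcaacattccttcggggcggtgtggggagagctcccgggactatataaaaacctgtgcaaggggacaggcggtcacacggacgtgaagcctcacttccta
Chrna1: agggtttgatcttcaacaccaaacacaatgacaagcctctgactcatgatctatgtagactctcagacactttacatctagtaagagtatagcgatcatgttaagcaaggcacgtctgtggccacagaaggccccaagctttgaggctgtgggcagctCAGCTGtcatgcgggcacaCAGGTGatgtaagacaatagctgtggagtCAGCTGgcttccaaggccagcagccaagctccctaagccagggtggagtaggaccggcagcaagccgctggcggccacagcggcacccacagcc

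Matches were searched on both strands in the promoters of all 10 members and in all 32851 promoters of the same length. An E-box was present in 9 of 10 members, with 3 in Chrna1 and none in Myl4, and in 72.3% of all promoters. A CArG box was present in the 2 actin genes alone, at position -73 in Acta1 and -47 in Actc1, and in 1.63% of all promoters. TATAAA, the core of the TATA box, was found in 4 of 10 members and in 13.6% of all promoters. The matches began at -95 in Myl1, on the opposite strand, at 34 in Actc1, after the start, at -7 in Acta1 and at -30 in Tnnt1. Whether any of them works as a TATA box was not tested. The MEF2 box was in none of the 10 and in 3.19% of all, and the NF-κB motif was in Des alone and in 4.51% of all. A MEF2 box or a CArG box can overlap TATAAA. A match is a stretch of letters and was not tested for binding. Both actin promoters held a CArG box. In Sirt6-/-RelA-/- cells Actc1 was under 16 on every array and Acta1 was bright, and any part of the box in this was not tested.

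Among the myosin light chains, Myl1 showed the widest gap between genotypes of all 10 members. Its intensities in Sirt6-/- cells at 0, 1.5, 6 and 24 h of TNF-α were 1105, 1256, 1169 and 1125. In WT cells they were -0.38, 15.4, 10.7 and -0.55, and in Sirt6-/-RelA-/- cells 8.94, 6.44, 19.6 and 15.9. The 4 Sirt6-/- arrays lay far above the other 8, and all 4 WT arrays were under 16. On the log2 scale Sirt6-/- exceeded WT by 6.18 ± 0.08 (SD over 4 times), which is at least 72.7-fold with the WT arrays set to 16. Mylpf, the regulatory light chain of fast fibres, was measured at 376, 429, 468 and 425 in Sirt6-/- cells. It lay between 2.92 and 20.0 in WT cells and between 1.39 and 18.5 in Sirt6-/-RelA-/- cells. Again the Sirt6-/- arrays stood alone, 4.62 ± 0.17 above WT on the log2 scale. Myl4, the embryonic and atrial light chain, differed in having a measurable level in all 3 genotypes. It stood at 882, 1077, 1091 and 808 in Sirt6-/- cells, at 57.8, 104, 89.3 and 92.9 in WT cells, and at 124, 141, 115 and 99.0 in Sirt6-/-RelA-/- cells. Sirt6-/- exceeded WT by 3.51 ± 0.35, and the ranges of the WT and the Sirt6-/-RelA-/- arrays overlapped, with a mean difference of 0.50 ± 0.43.

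**Figure D1:**
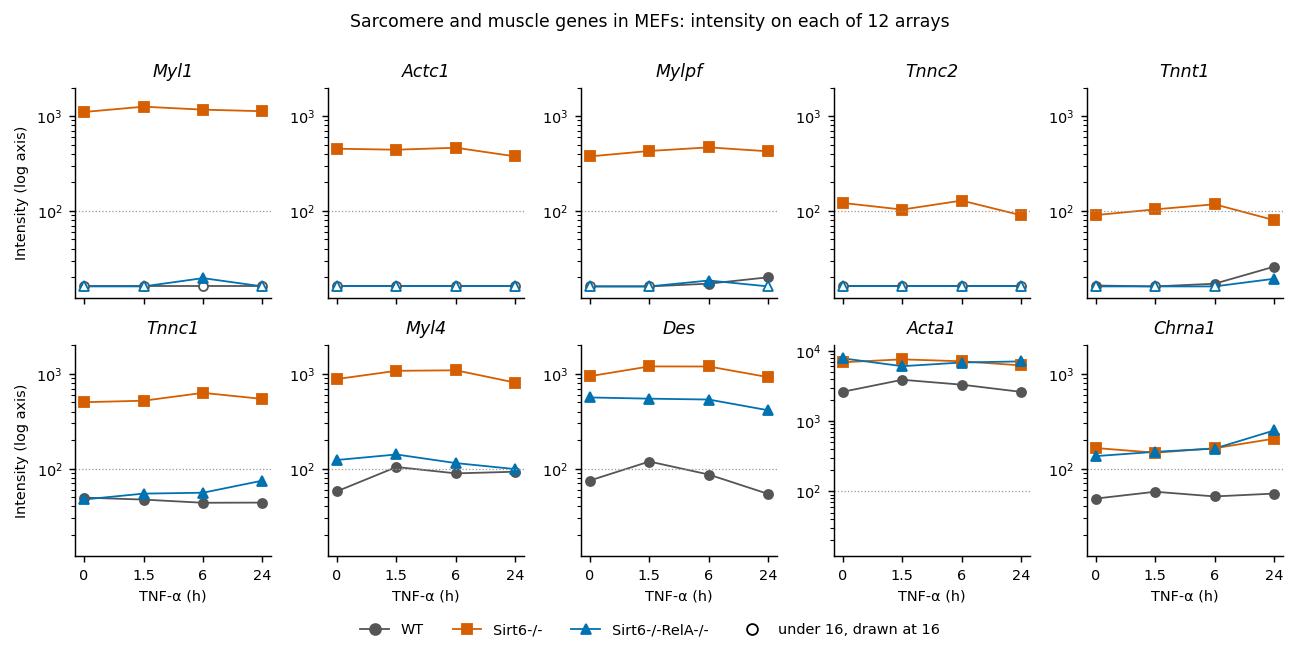
Intensity (log axis) of the 10 genes against hours of TNF-α, 1 panel per gene, 1 point per array. Lines join the 4 arrays of a genotype, open symbols are values under 16 drawn at 16, and the dotted line is the filter at 100. In 7 panels the Sirt6-/- line lies alone at the top, in the Des panel the 3 genotypes are separate, and in the Acta1 and Chrna1 panels both knockout genotypes lie above WT.

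The 2 sarcomeric actins did not behave alike. Actc1, the cardiac and fetal skeletal actin, gave 453, 442, 464 and 376 in Sirt6-/- cells. It was under 16 on all 8 other arrays, between -0.78 and 6.84 in WT and between -6.85 and 6.94 in Sirt6-/-RelA-/- cells. The difference of 4.76 ± 0.14 against either genotype is at least 27.0-fold with the other arrays set to 16. Acta1, the adult skeletal actin, was bright on every array, at 2616, 3879, 3302 and 2607 in WT cells. With Sirt6 deleted it reached 6895, 7569, 7109 and 6215, and with both genes deleted 7828, 6053, 6828 and 7089. All 8 knockout arrays lay above all 4 WT arrays, by 1.18 ± 0.19 and 1.18 ± 0.42 on the log2 scale, and the Sirt6-/- range lay within that of the Sirt6-/-RelA-/- cells. The profile of Acta1 over the 12 arrays had a Pearson r of 0.96 with the smooth muscle actin Actg2 and of 0.83 with Acta2, whose transcripts are close in sequence. Whether the Acta1 probe binds them was not tested.

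All 3 troponin genes were high in Sirt6-/- cells alone. Tnnc1, the troponin C of slow and cardiac muscle, was at 503, 521, 630 and 544 in Sirt6-/- cells. WT arrays lay between 43.7 and 49.6, and Sirt6-/-RelA-/- arrays between 47.4 and 74.9, where the highest value was at 24 h. The difference from WT was 3.57 ± 0.22. Tnnc2, the troponin C of fast muscle, was much dimmer, with 121, 103, 129 and 89.9 in Sirt6-/- cells and no value above 9.55 on the other 8 arrays. With those arrays set to 16 the difference was at least 6.86-fold. Tnnt1, the troponin T of slow fibres, gave 90.3, 104, 117 and 79.9 in Sirt6-/- cells, 11.3 to 25.8 in WT and 2.33 to 19.3 in Sirt6-/-RelA-/- cells. Its difference from WT was 2.39 ± 0.53, and the smallest of the 4, 1.63, was at 24 h.

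Des and Chrna1 departed from this pattern in different ways. Des gave 945, 1198, 1196 and 923 in Sirt6-/- cells against 75.05, 119, 86.8 and 54.2 in WT cells. In Sirt6-/-RelA-/- cells it stood in between, at 564, 548, 536 and 413, and none of the 3 ranges overlapped. On the log2 scale Sirt6-/- exceeded WT by 3.72 ± 0.31, and Sirt6-/-RelA-/- exceeded WT by 2.67 ± 0.34. Chrna1 intensities were 165, 147, 164 and 207 without Sirt6 alone, and 136, 151, 163 and 253 without both genes, against 48.4 to 57.2 in WT cells. The 2 knockout genotypes overlapped, with a mean difference of 0.01 ± 0.23, and both lay above every WT array, by 1.69 ± 0.23 and 1.69 ± 0.36. In both knockout genotypes the 24 h array was the highest.

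Placed in order of the Sirt6-/- minus WT difference, the members ran from Myl1 (6.18) through Actc1 (4.76), Mylpf (4.62), Des (3.72), Tnnc1 (3.57), Myl4 (3.51), Tnnc2 (2.78), Tnnt1 (2.39) and Chrna1 (1.69) to Acta1 (1.18). The steps from Actc1 to Mylpf and from Des through Tnnc1 to Myl4 were smaller than the SD over times. These sizes depend on the floor for the 5 genes whose WT arrays were at or near 16. The median of the 10 was 3.54, against 0.06 for all 6096 tested genes. For Sirt6-/-RelA-/- minus Sirt6-/- it was -2.89 against 0.02, and for Sirt6-/-RelA-/- minus WT it was 0.19 against 0.07. The 3 contrasts share arrays, and all follow from how the members were chosen.

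**Figure D2:**
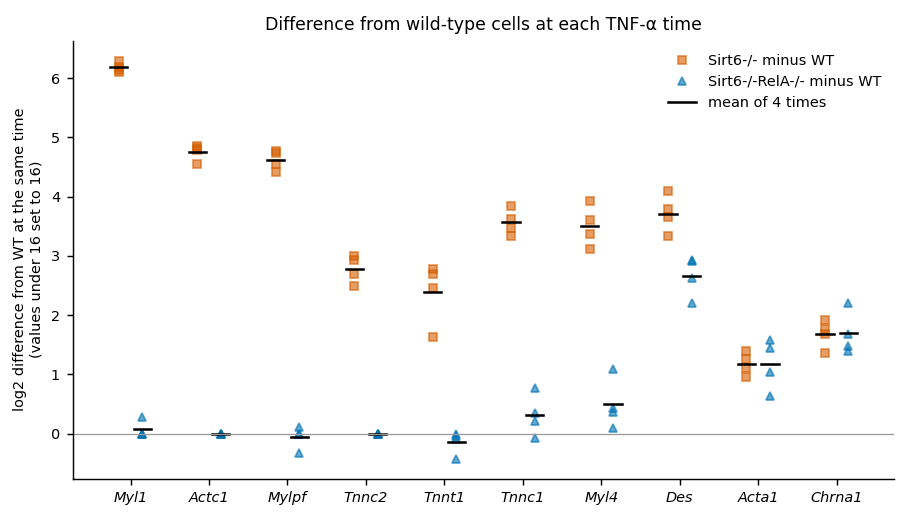
Log2 difference from the WT array of the same TNF-α time for the 10 genes, with values under 16 set to 16. Squares are Sirt6-/- and triangles Sirt6-/-RelA-/-, 4 times each, and the black bar is their mean. For 7 genes the squares run from 1.63 to 6.29 while the triangles lie between -0.42 and 1.10, and for Acta1 and Chrna1 the 2 sets overlap.

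How rare the shape was among all genes was counted without a test. A gene was counted if its lowest Sirt6-/- array was at least 2 times its highest array of the other 8, after values under 16 were set to 16. This held for 36 of 16593 genes, or 0.217%, 7 of which are members. Within the members the ratio was 56.5 for Myl1, 23.5 for Actc1, 18.8 for Mylpf, 6.71 for Tnnc1, 5.72 for Myl4, 5.62 for Tnnc2 and 3.09 for Tnnt1. Below 2 lay Des with 1.64, Acta1 with 0.79 and Chrna1 with 0.58. The profiles of the 7 over the 12 arrays had Pearson r between 0.96 and 1.00 with each other. Those of Acta1, Des and Chrna1 had r of 0.94 (Acta1 and Des), 0.91 (Acta1 and Chrna1) and 0.89 (Des and Chrna1). The 12 points of each correlation share arrays and fall into 3 genotypes.

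Actc1, Myl1 and Chrna1 have a second probe on the array. For Actc1 it gave 298, 277, 280 and 222 in Sirt6-/- cells and at most 12.05 on the other 8 arrays. For Myl1 it was far dimmer, with 43.2 to 64.0 in Sirt6-/- cells and at most 5.75 elsewhere. For Chrna1 it gave 29.1 to 48.8 in WT and 119 to 158 in Sirt6-/- cells, while Sirt6-/-RelA-/- cells gave 97.97 to 198. The last Chrna1 probe was under 16 on all 12 arrays, with a highest value of 7.23. All second probes thus separated the same genotypes as the first, and the dark probe separated none.

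The rest of the skeletal muscle programme was read from lists of 135 further genes, which were drawn up with earlier results of these data known. The arrays name 113 of them. Of these, 16 reached 100 and were tested, 58 lay between 16 and 100 at their highest, and 39 were under 16 on every array. Of the 16 tested genes, 13 were higher in Sirt6-/- than in WT cells by limma with Benjamini-Hochberg adjustment and none was lower, where 25.1% of all tested genes were higher and 17.0% lower. The median difference was 0.55. The largest was that of Eno3, the muscle enolase of glycolysis, with 1.68 ± 0.10 (SE, adjusted p = 6.79e-08). It was followed by Fabp3, a fatty acid binding protein of heart and muscle, with 1.64 ± 0.12 (adjusted p = 3.41e-07). Myom1, which crosslinks myosin at the M band, and Ankrd1, a stress-induced ankyrin repeat protein of the sarcomere, rose by 1.37 ± 0.11 (adjusted p = 8.24e-07) and 1.32 ± 0.10 (adjusted p = 4.68e-07). Itga7, the laminin receptor chain of muscle, rose by 0.96, Chrnb1, the beta subunit of the receptor that Chrna1 belongs to, by 0.68, Mef2a, a transcription factor of the muscle programme, by 0.57, and the tropomyosin gene Tpm2 by 0.40. Fbxo32, a ubiquitin ligase subunit of muscle wasting, was not called, with -0.14.

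The same 16 genes were then compared between the knockout genotypes. In Sirt6-/-RelA-/- relative to Sirt6-/- cells, 6 were lower and 1 was higher, with a median of -0.18, where 15.0% of all tested genes were lower and 16.1% higher. Ncam1, a cell adhesion molecule, and Fabp3 fell by 0.76 and 0.77, and Cryab, a chaperone of desmin, rose by 0.41. Relative to WT, 8 of the 16 were higher in Sirt6-/-RelA-/- cells and none was lower, with a median of 0.36, where 15.3% of all tested genes were higher and 5.31% lower. Ankrd1 stood at 1.20, Eno3 at 1.20 and Cryab at 0.93 in that contrast. None of the 16 reached 100 on the Sirt6-/- arrays alone. That 6 of the 10 members did so follows from how they were chosen, and the share over all tested genes was not counted.

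**Figure D3:**
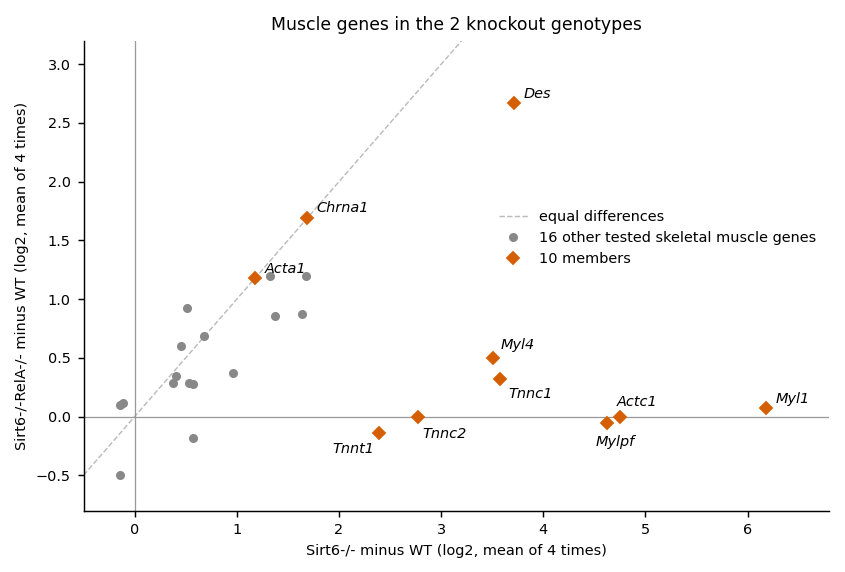
Difference from WT in Sirt6-/-RelA-/- cells (vertical axis) against that in Sirt6-/- cells (horizontal axis), both log2 means of 4 times. Diamonds are the 10 members and grey points the 16 other tested skeletal muscle genes. The 7 members bright only in Sirt6-/- cells lie within 0.50 of the horizontal line at 0, Des lies between it and the dashed line of equal differences, and Acta1 and Chrna1 lie on the dashed line.

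Below the filter, 7 of the 97 other listed muscle genes that never reached 100 met the 2-fold criterion for the Sirt6-/- arrays, where 0.114% of all 10497 genes under 100 did so. They are named because they met it, so after their values were seen. Chrng, the fetal gamma subunit of the acetylcholine receptor, gave 66.4 to 92.4 in Sirt6-/- cells and at most 6.15 elsewhere. Myh8, the perinatal myosin heavy chain, gave 42.2 to 67.1 and at most 9.19 elsewhere. Mb, the oxygen-binding myoglobin, gave 60.2 to 75.1 and at most 14.3 elsewhere. Tnni1, the slow troponin I, gave 36.2 to 55.9 and at most 15.5 elsewhere, and Pdlim3, a Z disc protein, gave 73.5 to 91.8 and at most 18.6 elsewhere. Atp2a1, the calcium pump of fast fibres, lay between 45.7 and 61.3 and Trim72, a membrane repair protein, between 47.0 and 72.3, both with all other arrays under 16. A dim probe of Tpm2 had this order too, with 127 to 195 in Sirt6-/- cells, 50.4 to 86.3 in WT and 43.3 to 49.5 in Sirt6-/-RelA-/- cells, while the bright Tpm2 probe did not.

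**Figure D4:**
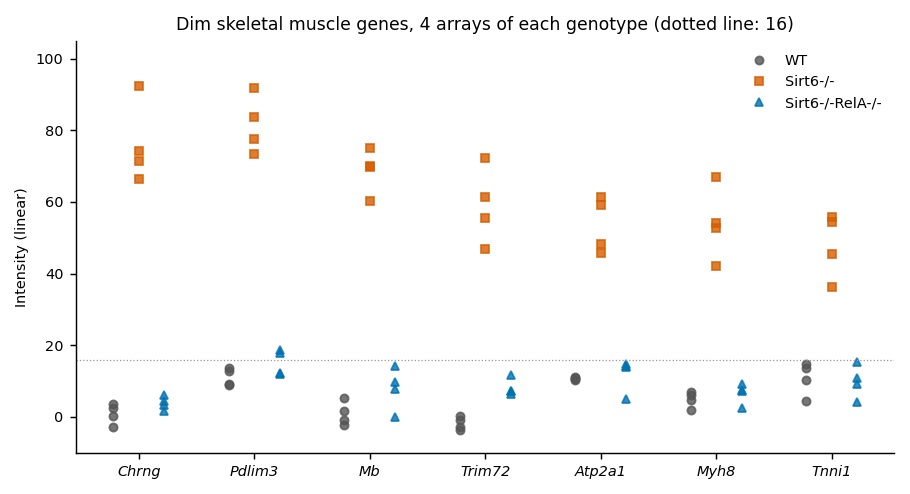
Intensity (linear axis) of 7 skeletal muscle genes that were under 100 on every array, 4 arrays of each genotype, 1 point per array. The dotted line marks 16. The Sirt6-/- points lie between 36.2 and 92.4, and all others lie at or under 18.6.

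Of 14 myogenic transcription factors on the array, 6 were under 16 on every array, 7 lay between 16 and 100 at their highest, and only Mef2a, given above, reached 100. Myod1, Myf5 and Myf6 were under 16 on all 12 arrays, with highest values of 10.3, 3.09 and 2.97. Myog, the member of that family that marks differentiating myocytes, was dim: its brighter probe gave 8.56 to 25.5 in WT and 28.5 to 50.1 in Sirt6-/- cells, while Sirt6-/-RelA-/- cells gave 31.7 to 43.9. Its second probe gave 16.2 to 25.9 in Sirt6-/- cells and at most 13.9 elsewhere. Pax7 of satellite cells, the fusion protein gene Mymk and the adult creatine kinase gene Ckm were under 16 throughout. Of the 4 genes of the MyoD family only Myog left the floor, and no array gave more than 50.1.

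Markers of other cell types moved between the same cultures, and their part in the members' values was not tested. In bulk RNA, fewer cells of a type and less RNA per cell cannot be told apart. Over all tested genes, 25.1% were higher and 17.0% lower in Sirt6-/- than in WT cells. Of 10 smooth muscle genes measured, 7 were tested and 6 were higher in Sirt6-/- than in WT cells. Their summed intensity was 20346 to 28702 in WT and 28666 to 39548 in Sirt6-/- cells, while Sirt6-/-RelA-/- cells gave 31248 to 41177. The smooth muscle myosin Myh11 gave 30.8 to 71.3 in WT and 164 to 391 in Sirt6-/- cells, while Sirt6-/-RelA-/- cells gave 71.2 to 108. It was 2.45 ± 0.12 higher in Sirt6-/- than in WT cells (SE, limma adjusted p = 8.46e-09). Of 14 heart genes, 6 were under 16 on every array, among them the defining Nkx2-5, Myh6 and Myl2, and only Nppb was tested. Their sum was 94.2 to 251 in WT and 184 to 428 in Sirt6-/- cells, while Sirt6-/-RelA-/- cells gave 239 to 367. Of 10 tested fibroblast genes, 5 were lower and 1 was higher in Sirt6-/- than in WT cells. The largest differences were those of Pdgfra (-2.79) and Lum (-2.27), and the higher gene was Dcn (0.61). The summed level of the fibroblast genes was 20333 to 26217 against 27801 to 33808, and 25625 to 30972 with RelA also deleted. All 4 tested macrophage genes were lower, with a sum of 198 to 509 against 960 to 2054, and 333 to 524 with RelA also deleted. The 4 were Lyz2 (-2.50), Cd52 (-2.30), Adgre1 (-2.17) and Cd14 (-2.03). Ptprc and Itgam, also listed, were under 16 on every array, and Cd68 and Csf1r are not on the array. Of the tested genes of other lists, 1 of 2 epithelial genes (Cldn4) and the neural Map2 were higher, and the cartilage collagen Col2a1 was lower, while none of the 5 listed endothelial and 5 listed adipocyte genes reached 100. Emcn, an endothelial sialomucin that is not on that list and is named after its values were seen, was among the 36 genes with the Sirt6-/- pattern, at 100.5 to 124 in Sirt6-/- cells and at most 12.9 elsewhere.

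The response to TNF-α was tested within each genotype, as the mean of 1.5, 6 and 24 h against the single 0 h array. Most members were picked for their level on these same Sirt6-/- arrays, so the test in Sirt6-/- cells is not independent of that choice. In Sirt6-/- cells none of the 10 members passed the threshold in limma with Benjamini-Hochberg adjustment, and none had an unadjusted p under 0.05, where 0.361% of all genes were called. The members' log2 differences lay between -0.19 for Tnnc2 and 0.23 for Mylpf, with a median of 0.12. For Myl1 the difference was 0.10 with a 95% interval of -0.23 to 0.43, for Actc1 -0.09 with -0.41 to 0.23, and for Des 0.22 with -0.52 to 0.95. No single array differed from 0 h by more than 0.43 in any member, where the gaps between Sirt6-/- and WT cells were 1.18 to 6.18. Those gaps follow from how the members were chosen.

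Within that range the 6 h array was the highest of the 4 Sirt6-/- arrays for 6 members and the 24 h array the lowest for 6. Of the 10, 9 were lower at 24 h than at 6 h, the exception being Chrna1. Each time is 1 array, so the members are not replicates of a time. The share of all tested genes with these orders was not counted, and nothing about the members is read from the counts. The late response, 24 h against the mean of the 3 earlier times, was -0.38 for Tnnc2 (95% interval -0.72 to -0.04), -0.37 for Tnnt1 and 0.39 for Chrna1. These 3 had an unadjusted p under 0.05, but after Benjamini-Hochberg adjustment in limma no member passed (adjusted p = 0.517 for Tnnc2), where 0.0492% of all genes were called. For Tnnc2 all WT and Sirt6-/-RelA-/- arrays were set to 16 and add no spread to the fit, so its interval can be too narrow. With no filter on low genes, Actc1 alone was called, at -0.27 (limma adjusted p = 0.00171). Its WT and Sirt6-/-RelA-/- arrays were also all set to 16, so no response is read from this call. In Sirt6-/-RelA-/- cells the late difference of Chrna1 was 0.76 (95% interval 0.40 to 1.13), with a limma adjusted p = 0.251. No gene at all was called there, 0.00% of 6096. Here 2 members, Chrna1 and Tnnc1, had an unadjusted p under 0.05. In WT cells the late difference was 0.65 for Tnnt1 (95% interval 0.29 to 1.01, limma adjusted p = 0.590) and -0.76 for Des (95% interval -1.27 to -0.25, limma adjusted p = 0.997). Both had an unadjusted p under 0.05, but no member was called for the late response in WT cells, with 0.0328% of all genes called. The late difference of Tnnt1 thus had opposite signs in Sirt6-/- and WT cells, -1.02 apart (95% interval -1.53 to -0.51, limma adjusted p = 0.791 for that interaction). Its 4 WT arrays were dim, with 16.3, 11.3, 17.1 and 25.8 in order of time, and 1 was under 16. Tnnt1 passed the filter only through the Sirt6-/- arrays. Whether its late difference in WT cells exceeds noise near the floor was not tested, so no opposite response is read from it.

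**Figure D5:**
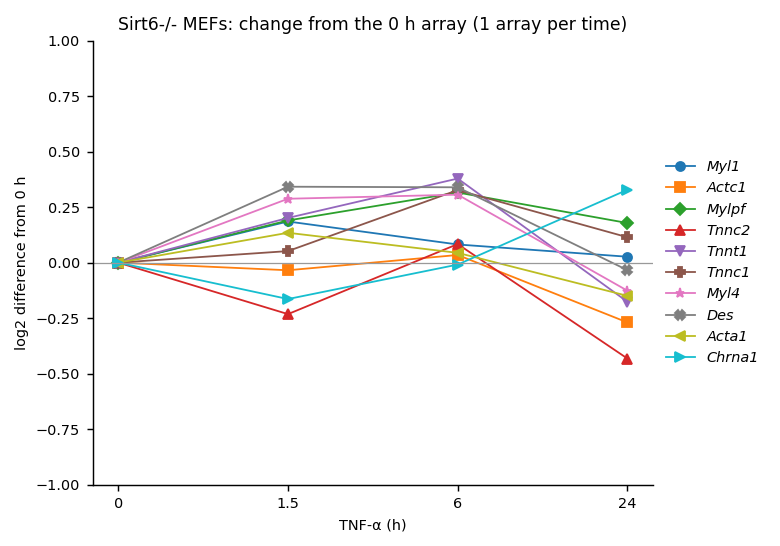
Log2 difference from the 0 h array in Sirt6-/- cells for the 10 genes against hours of TNF-α, 1 array per time. All points lie within 0.43 of 0, and 9 of the 10 lines fall between 6 and 24 h. The share of all tested genes that fell likewise was not counted.

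In WT cells 1 of the 10 members, Myl4, passed the threshold for the TNF-α response. It was higher on all 3 treated arrays, by 0.72 on average (95% interval 0.25 to 1.20, limma adjusted p = 0.0486), where 13.1% of all genes were called in the same contrast. The call rests on the WT 0 h array, where Rela too was at 674 against 1221 to 1303 later, and it held under 5 of 10 settings, with adjusted p from 0.0389 to 0.214. In Sirt6-/-RelA-/- cells none of the members was called for TNF-α and none had an unadjusted p under 0.05, with 0.00% of all genes called. No member, and none of the 6096 genes (0.00%), passed the threshold for a difference in response between Sirt6-/- and WT cells in a limma interaction term, and no member had an unadjusted p under 0.05 in it. For Myl1, Actc1 and Tnnc2 this term holds no measured WT response, since all 4 WT arrays were under 16 and were set to the same value. Nor was there a measured response of Actc1 and Tnnc2 in Sirt6-/-RelA-/- cells. Myl1, Mylpf and Tnnt1 each had 3 of 4 Sirt6-/-RelA-/- arrays under 16. In WT cells Mylpf had 2 arrays under 16 and Tnnt1 had 1. The floor sets part of the responses of these genes. For Myl4 the difference between the 2 responses was -0.57, with a 95% interval of -1.24 to 0.10. The contrasts within WT and within Sirt6-/-RelA-/- cells come from the same fit and were added after the data were seen.

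Genes outside the members with the most similar profile were sought among the 6096 tested genes. They were ranked by Pearson r over the 12 arrays with the mean of the 10 scaled profiles. That mean blends the 7 members high in Sirt6-/- cells alone with Acta1, Des and Chrna1. A high r is thus likeness to the blend and need not be likeness to the 7. The 10 highest were Gria3 (0.98), Sytl2, H4c8, Aifm2, Cpne8, Gpx3, Gaa, Tcn2, Pmaip1 and Cdkn1c (0.98). None is on the muscle lists, of which only 16 genes were tested and could be ranked. The 7 dim muscle genes with the Sirt6-/- pattern never reached 100 and could not appear. The members' own r with that mean ran from 0.70 for Chrna1 to 0.98 for Myl4. The cell cycle inhibitor Cdkn1c, the last of the 10, gave 3192 to 5080 in Sirt6-/- cells, 540 to 810 in WT and 702 to 1154 in Sirt6-/-RelA-/- cells. Gria3, a glutamate receptor subunit, gave 314 to 361, 167 to 197 and 210 to 235 in the same order. In both, Sirt6-/-RelA-/- cells lay nearer to WT than to Sirt6-/- cells.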

How the data were processed

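RNA of the 12 cultures was labelled and hybridized to Illumina bead arrays. The values are the intensities the authors deposited after GenomeStudio (version not given in the sources used here), linear, with background removed and arrays scaled by a method not named. A second table with 12 columns of non-normalized signals was not used, since its columns could not be assigned to samples. Negative values made up 9.35% to 26.6% of an array, with a root mean square of at most 6.11, and 1 array per condition limits the precision.

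A floor of 16 was applied before taking log2. Of 25697 probes, 23978 have 1 gene symbol, and the 1719 with none were left out. The brightest probe stood for a gene, and the 6096 genes that reached 100 on any array were fitted with limma 3.58.1 in R 4.3.3 on all 12 arrays. Genotypes were compared with genotype and time as terms (6 residual degrees of freedom), and TNF-α responses with treated against 0 h, or 24 h against earlier times, within each genotype. P-values were adjusted over all genes (Benjamini-Hochberg) and called under 0.05. Fold changes are on the floored scale.

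The members and gene lists were chosen with earlier results of these data known. By rule, named genes are the members, Sirt6, Rela, the MyoD family, of each list up to 4 tested genes with the largest Sirt6-/- minus WT difference, and the 10 genes most like the members' mean. Outside this rule, other genes were named with their values known. Among them are Eif2s3y, Acta2, Emcn, the dim muscle genes with the Sirt6-/- pattern and listed genes under 16 on every array. Other floors, scalings, filters, probe rules and left-out arrays were tried as alternatives. Promoters were matched by symbol, 10 of 10.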

Additional observations from a re-analysis of the deposited data

Results flagged for a closer look

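The differences of Tnnc1 from the 0 h array had 1 sign in WT cells and the opposite sign in both knockout genotypes. All 3 treated WT arrays lay below the 0 h array, with a mean log2 difference of -0.14. All 3 treated Sirt6-/- arrays lay above theirs, with a mean of 0.16, and so did all 3 treated Sirt6-/-RelA-/- arrays, with a mean of 0.37. Each genotype has a single 0 h array. The limma interaction term for Sirt6-/- minus WT was 0.31, with a 95% interval of -0.28 to 0.89 and an adjusted p = 0.599, so the difference did not pass the threshold. The difference between WT and Sirt6-/-RelA-/- cells was not tested. In WT and Sirt6-/-RelA-/- cells Tnnc1 was under 100 on every array, and it passed the filter only through the Sirt6-/- arrays. Its WT arrays lay between 43.7 and 49.6. In no genotype did its TNF-α response have an unadjusted p under 0.05, so no opposite response is read from these signs.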

How the results depend on the processing

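No member whose difference exceeded its SD over times changed direction under any alternative. The members' median for Sirt6-/- minus WT was 2.77 with an offset of 50. For Sirt6-/-RelA-/- minus Sirt6-/- it was -2.39 with a floor of 32, -2.002 with the offset and -3.13 with a filter of 200, and for Sirt6-/-RelA-/- minus WT it was 0.41 with that filter. Of the other skeletal muscle genes, 13 of 16 tested were called higher in Sirt6-/- than in WT cells. With a filter of 50 more were tested, a number not given here, and 25 were called higher, where 2927 of all genes were called in either direction. With no filter it was 27 of 113, where 2156 of all 16593 genes were called in either direction. Between the knockout genotypes, 15 and 17 muscle genes were called lower with RelA also deleted under these filters. There 2114 and 1380 of all genes were called in either direction. The muscle counts under these filters are for 1 direction and the counts of all genes for both, so their shares cannot be compared. Without a filter 676 genes differed between Sirt6-/-RelA-/- and WT cells, against 1254. Leaving out the arrays of 1 TNF-α time, that count was 484 to 1266 (lowest without 6 h) and the count between the knockout genotypes 1144 to 2017, against 1897. For the late response in Sirt6-/- cells, 3 genes were called, 5 with a floor of 32, 1 with a filter of 50, 177 without one, 1 with an intensity trend in the prior and 7 without the WT 0 h array. Without a filter 1 member was called, Actc1, with -0.27 and a limma adjusted p = 0.00171, and the cause was not tested. Its WT and Sirt6-/-RelA-/- arrays were all set to 16 and add no spread to the fit. The TNF-α response differed between Sirt6-/- and WT cells for 0 genes, 1 with a filter of 200, 229 without a filter and 2 with the trend. The fits that leave out a time, or the WT 0 h array, were run for the genotype contrasts and, for the latter, the late response. Background correction of the non-normalized signals was not run, since its columns could not be assigned. The genotype contrasts hold TNF-α time as a term. No paired analysis was possible because, beyond that, the samples share only the replicate number 1.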
